A study of Mus musculus with 15 samples.

Results

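The MHC class I peptide loading genes are described here across the early dendritic cell lineage of mouse bone marrow. The 10 genes were B2m, Tap1, Tap2, Tapbp, Tapbpl, Psmb8, Psmb9, Psmb10, Erap1 and Nlrc5, chosen by name, out of 19938 genes measured. Each was read from a probe set annotated to that gene alone, and Nlrc5, which had 19 such probe sets, from the one with the highest mean signal. Values are log2 of the deposited linear signal, in log2 units throughout, so a difference of 1 is a doubling. Signal differs between probes for reasons other than RNA amount, so levels are compared between groups and never between genes.

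RNA was measured on 15 Affymetrix arrays of sorted cells that all carried a Zbtb46-GFP reporter, in which GFP marks progenitors committed to classical dendritic cells. Zbtb46-GFP+ cells with intermediate c-Kit came from Batf3 KO reporter mice, Id2 KO chimeric mice and WT chimeric mice, with 3 arrays each. Common dendritic cell progenitors (CDPs), the stage before commitment, came from the same 3 kinds of mice with 2 arrays each. Batf3 KO mice are not labelled as chimeric, so host type cannot be told apart from loss of Batf3, and the labels give neither ages nor how many animals an array represents. The p-values therefore measure the spread between arrays, which may be technical.

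Class I molecules display peptides from inside the cell to CD8 T cells. The immunoproteasome subunits (Psmb8, Psmb9, Psmb10) cut proteins into peptides, the TAP transporter (Tap1 with Tap2) moves them into the endoplasmic reticulum, and the aminopeptidase Erap1 trims them there. Tapasin (Tapbp) and the tapasin-related protein TAPBPR (Tapbpl) help load them onto a heavy chain paired with beta-2 microglobulin (B2m), and Nlrc5 is a transactivator of class I genes. Dendritic cells use this route, and cDC1 cells use it also for antigens taken up from outside, which is called cross-presentation.

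The 3 arrays that form replicate 1 of the Zbtb46-GFP+ groups had medians of 23.8 to 24.1 in signal, while those of the remaining 12 arrays were 100.8 to 112.1. They are kept apart below, which leaves 2 arrays per group. One array of every pair had more signal at its 75th percentile than its partner, and WT steps are also given within the higher and the lower set so formed. Batf3 averaged 7.10 ± 0.31 in Batf3 KO and 9.92 ± 0.10 in WT Zbtb46-GFP+ cells (SD, n = 2 each). Id2 averaged 8.61 ± 0.30 in Id2 KO and 11.74 ± 0.37 in WT Zbtb46-GFP+ cells (SD, n = 2 each). Id2 signal thus remained in Id2 KO cells, where it rose by 2.09 ± 0.32 (SE, limma adjusted p 0.00259) from 6.52 in CDPs. The rise of Id2 in WT was 4.19. Batf3 was low in Id2 KO Zbtb46-GFP+ cells, too, at 8.29, a difference from WT of -1.63 ± 0.18 (SE). The 2 knockouts therefore share a lower Batf3 signal at this stage. Id2 in Batf3 KO Zbtb46-GFP+ cells was 11.35 and differed from WT by -0.38 ± 0.32 (SE). Zbtb46 itself averaged 6.0 in Batf3 KO, 6.02 in Id2 KO and 7.08 in WT Zbtb46-GFP+ cells, against 5.85, 5.82 and 6.0 in the CDPs of the same genotypes. In both knockouts it thus lay below 6.42, the 95th percentile of olfactory receptor genes, which serve as a gauge of background, while H2-Ab1 stood at 13.39 to 13.77 in every Zbtb46-GFP+ group, against 8.25 to 8.47 in CDPs. Xist differed by -7.06 to -6.53 in the knockouts against WT over both stages, so the sex of the mice cannot be told apart from genotype. None of the 10 genes is X-linked.

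The promoters of Tap1, Tapbp and B2m are shown because the first of these genes shares its upstream region with Psmb9, the second changed most between the stages, and the third carries the interferon-type motif. RefSeq windows (build GRCm38.p6) of 250 bases before to 50 after the gene start were found for 7 of the 10 genes, and not for Tap2, Tapbpl or Nlrc5. The 250 upstream bases are printed 5′ to 3′ on the gene's own strand, with motif matches in capitals. They are chr17:34187306-34187555 (plus strand) for Tap1, chr17:33919228-33919477 (plus strand) for Tapbp and chr2:122147437-122147686 (plus strand) for B2m.
Tap1: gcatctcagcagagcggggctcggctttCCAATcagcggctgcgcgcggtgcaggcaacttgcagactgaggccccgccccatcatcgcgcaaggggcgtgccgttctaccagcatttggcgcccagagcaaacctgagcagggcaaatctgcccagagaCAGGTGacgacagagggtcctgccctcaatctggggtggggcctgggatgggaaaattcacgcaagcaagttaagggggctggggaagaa
Tapbp: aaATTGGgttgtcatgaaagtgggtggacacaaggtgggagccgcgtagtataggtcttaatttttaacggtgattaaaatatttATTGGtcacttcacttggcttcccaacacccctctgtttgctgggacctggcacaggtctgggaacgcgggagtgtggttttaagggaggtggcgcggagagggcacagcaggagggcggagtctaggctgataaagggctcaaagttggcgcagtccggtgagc
B2m: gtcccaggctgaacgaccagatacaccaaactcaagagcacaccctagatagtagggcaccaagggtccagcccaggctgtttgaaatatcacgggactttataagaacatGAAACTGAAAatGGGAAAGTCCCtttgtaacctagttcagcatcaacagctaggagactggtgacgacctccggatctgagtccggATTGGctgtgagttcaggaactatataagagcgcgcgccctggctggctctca

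The Tap1 and Psmb9 windows shared 275 bases, read as reverse complements, since the 2 genes start 226 bases apart and run away from each other. This shared stretch held 1 E-box (CAGGTG), the motif of the E proteins that Id2 restrains, at -90 to -85 from the Tap1 start and at -141 to -136 from that of Psmb9. It also held 1 CCAAT box (CCAAT). In Tapbp only 2 CCAAT boxes were found, at -248 to -244 and -165 to -161. B2m held an interferon-stimulated response element (ISRE, a pair of GAAA with 2 free bases between) at -139 to -130, followed by an NF-kB match (GGGA, then CC after 4 free bases) on each strand, the pair overlapping between -127 and -117, and a CCAAT box. Of the others, Erap1 had an ISRE at -4 to 6, Psmb8 a GAS element (TTCNNNGAA) at -97 to -89 and Psmb10 none of the 6 motifs searched. The AP-1 motif (TGANTCA), the kind bound by Batf3 with its partners, matched in 0 of the 7 windows. Searched on both strands, the shares of all 32851 windows of this length with a match were 20.2% for the E-box, 37.4% for CCAAT, 3.44% for ISRE, 20.7% for NF-kB, 8.3% for GAS and 7.81% for AP-1. A match is a description of the letters and not a bound site.

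In WT cells the step from CDPs to Zbtb46-GFP+ cells brought small differences in the loading genes, positive for 9 and negative for Erap1, the largest being that of Tapbp. With limma's test and Benjamini-Hochberg adjustment over all genes (adjusted p under 0.05), 3 of the 10 rose, Tapbp, Tap1 and Psmb9, and 0 fell. Of all genes 4.71% rose and 6.38% fell in this step, which is 940 genes higher and 1272 lower, or 1197 and 996 after centring each array on its 75th percentile. That centring raised every WT step by 0.11. The median step of the members was 0.33, beside 0.03 over all genes. Both Zbtb46-GFP+ arrays lay above both CDP arrays for 9 members and below them for Erap1, where 21.4% of all genes were above and 22.9% below.

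**Figure D1:**
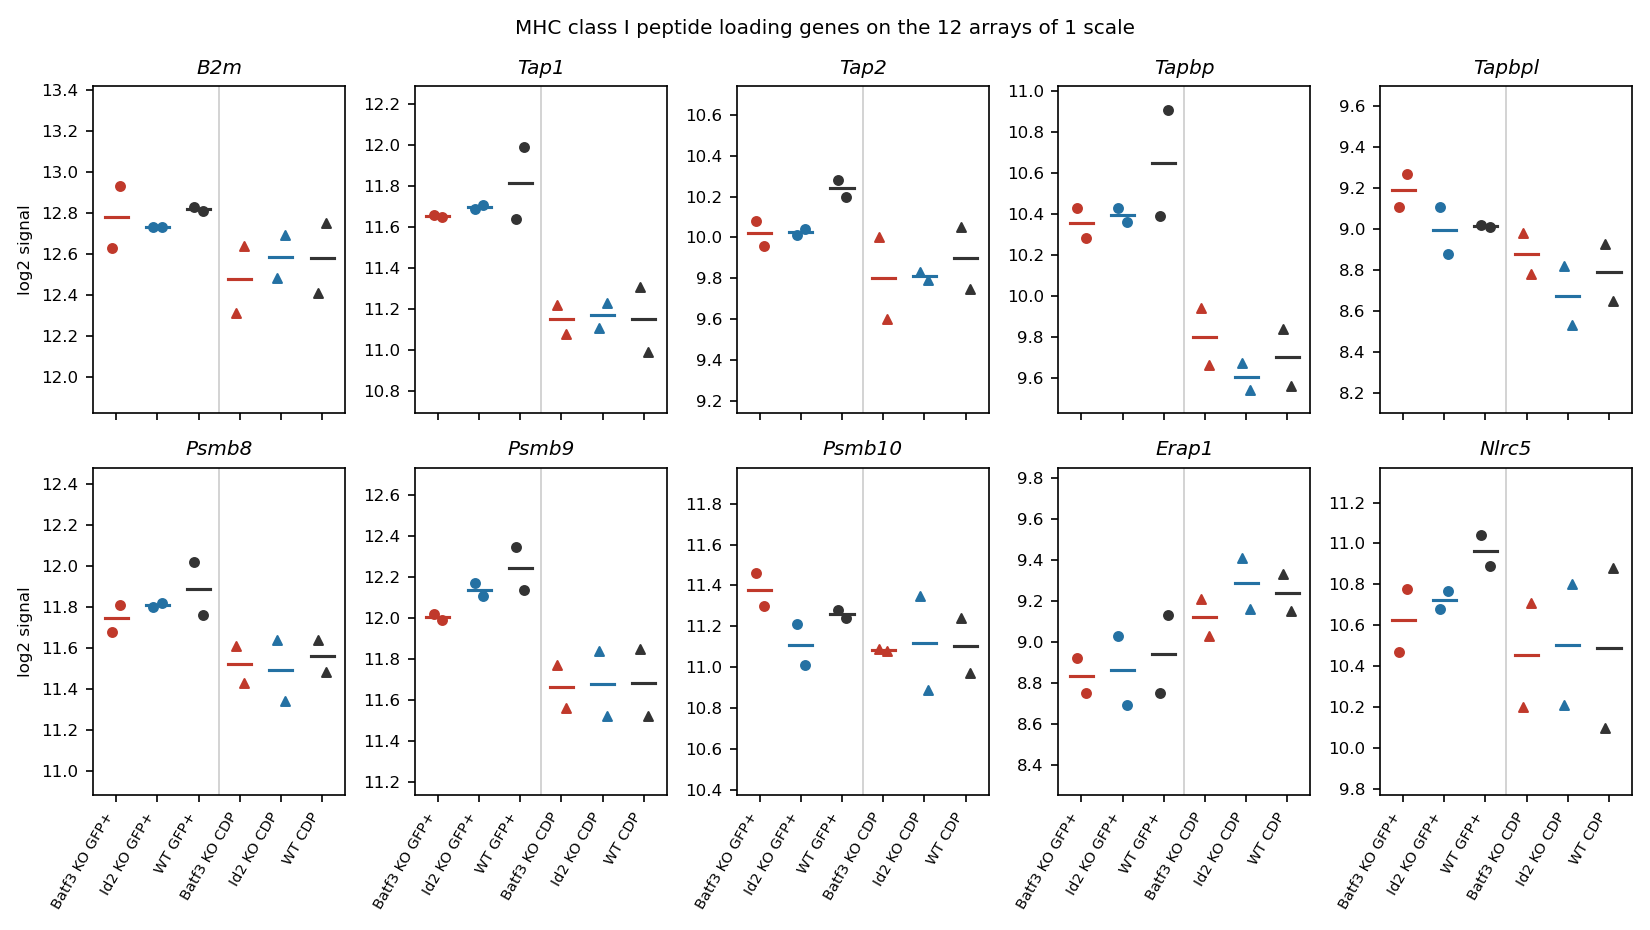
Log2 signal (y axis, 1 panel per gene with its own range of equal length) of the 10 loading genes on the 12 arrays of 1 scale. Circles are Zbtb46-GFP+ arrays, triangles CDP arrays and bars group means, in the order Batf3 KO, Id2 KO, WT; for Tap1, Tapbp, Psmb8 and Psmb9 every Zbtb46-GFP+ array lies above every CDP array.

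Tapbp, which encodes tapasin, the bridge between TAP and the empty class I molecule, measured 10.43 and 10.28 in Batf3 KO Zbtb46-GFP+ cells, against 9.94 and 9.66 in Batf3 KO CDPs. In Id2 KO cells it measured 10.43 and 10.36 in Zbtb46-GFP+ cells, against 9.67 and 9.54 in CDPs. In WT cells it measured 10.39 and 10.91 in Zbtb46-GFP+ cells, against 9.84 and 9.56 in CDPs. No array of the Zbtb46-GFP+ stage overlapped an array of the CDP stage, and the higher of the 2 WT Zbtb46-GFP+ arrays stood apart from the other 5. The WT step was 0.95 ± 0.18 (SE), a 1.94-fold rise with a limma adjusted p of 0.00618. It was 1.07 within the set of arrays with the higher 75th percentile and 0.83 within the other set. Leaving out any 1 of the 12 arrays kept the WT call, with adjusted p from 0.00244 to 0.0493.

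The Tapbp step was 0.80 ± 0.18 in Id2 KO cells (limma adjusted p 0.0244), and this call was lost without any 1 of the 4 Id2 KO arrays, when the adjusted p reached at most 0.164. In Batf3 KO cells the step of Tapbp was 0.56 ± 0.18 and missed the threshold (limma adjusted p 0.108), but passed it at 0.0143 after quantile normalization and at 0.0267 after centring on the 75th percentile. The Batf3 KO step differed from the WT step by -0.40, with a 95% interval of the difference between steps from -0.97 to 0.17. Tapbp was also the one member whose 6 group means spanned at least 1 log2 unit (1.05). The 3 genes with the most similar centred group means were Marchf1, Stard3nl and Enah, with root mean square differences of 0.050, 0.051 and 0.051 over the 6 means, and Tap1 was the nearest of the loading genes at rank 119 with 0.128.

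**Figure D2:**
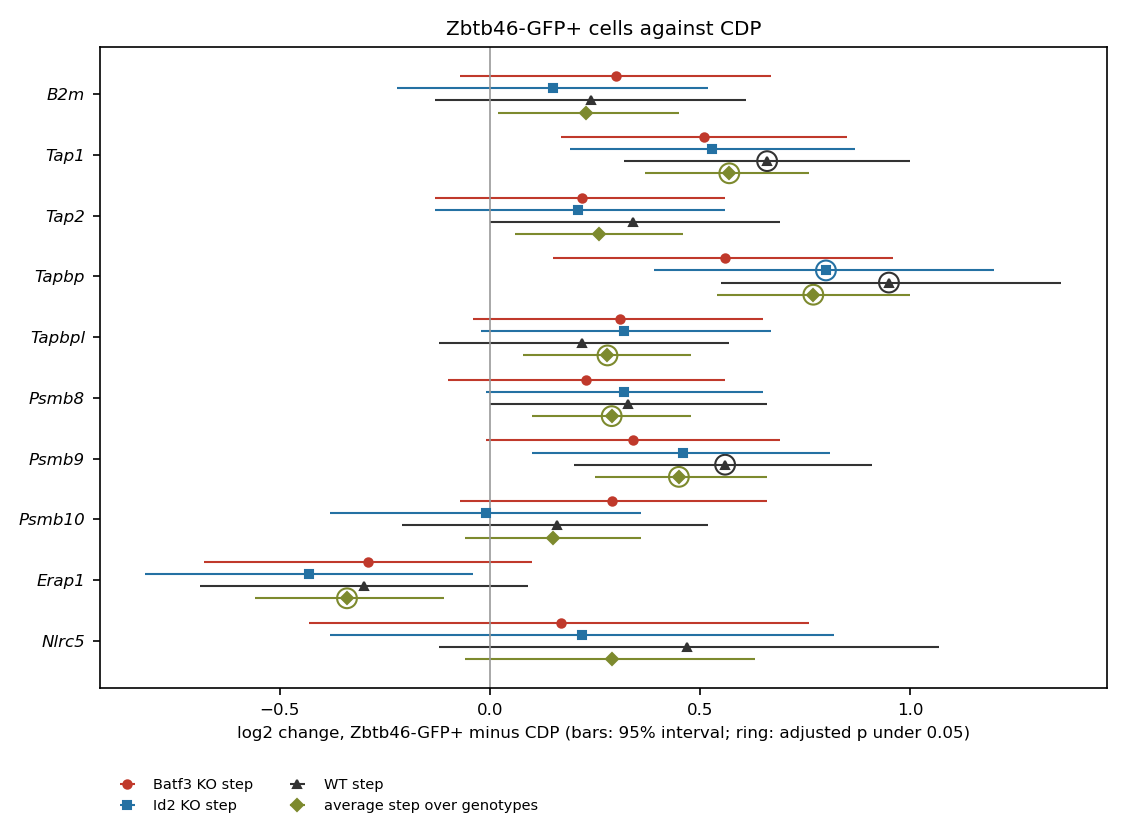
Log2 difference of Zbtb46-GFP+ cells minus CDPs (x axis) for each loading gene, with 95% intervals, in Batf3 KO, Id2 KO and WT cells and averaged over the 3 genotypes. Rings mark an adjusted p under 0.05: Tapbp, Tap1 and Psmb9 in WT, Tapbp in Id2 KO, none in Batf3 KO, and 6 genes in the average, of which Erap1 is negative.

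Tap1, one chain of the peptide transporter, measured 11.66 and 11.65 in Batf3 KO Zbtb46-GFP+ cells, against 11.22 and 11.08 in Batf3 KO CDPs. In Id2 KO cells the values were 11.69 and 11.71 in Zbtb46-GFP+ cells, against 11.11 and 11.23 in CDPs. In WT cells they were 11.64 and 11.99 in Zbtb46-GFP+ cells, against 11.31 and 10.99 in CDPs. As for Tapbp, the stages did not overlap in any genotype. Zbtb46-GFP+ arrays lay above those of CDPs in this way for 21.6% (Batf3 KO), 20.3% (Id2 KO) and 21.4% (WT) of all genes. The Tap1 steps of 0.51 in Batf3 KO and 0.53 in Id2 KO missed the threshold with limma adjusted p of 0.0818 and 0.0701. Both passed it with a prior trend (limma adjusted p 0.0492 and 0.0416). They also passed with all 15 arrays and a term for the 3 kept apart (0.0207 and 0.0355). In WT Tap1 rose by 0.66 ± 0.15 (SE, limma adjusted p 0.0182). The WT call was lost without replicate 2 of the WT CDPs (limma adjusted p 0.116) or without replicate 3 of the WT Zbtb46-GFP+ cells (0.124). With a spread estimated from the 2 WT groups alone the limma adjusted p of Tap1 was 0.0944.

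Tap2, the partner chain, measured 10.28 and 10.20 in WT Zbtb46-GFP+ cells, against 10.05 and 9.75 in WT CDPs. Its steps were 0.22 in Batf3 KO, 0.21 in Id2 KO and 0.34 in WT, and none passed the test. The WT interval ran from -0.00 to 0.69, and quantile normalization brought the WT step of Tap2 past the threshold (limma adjusted p 0.0464).

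Among the immunoproteasome subunits, Psmb9 measured 12.35 and 12.14 in WT Zbtb46-GFP+ cells, against 11.85 and 11.52 in WT CDPs. The 2 stages did not overlap in any genotype, and its step was 0.34 in Batf3 KO, 0.46 in Id2 KO and 0.56 ± 0.16 in WT. The WT rise lay just past the threshold (limma adjusted p 0.0481) and held in 3 of the 12 fits that left out 1 array. This call was also lost with all 15 arrays and a term for the 3 kept apart (limma adjusted p 0.0609). With a spread estimated from the 2 WT groups alone its limma adjusted p was 0.145. Within the 2 sets of arrays the WT step of Psmb9 was 0.29 in the higher and 0.83 in the lower set. Psmb8 measured 12.02 and 11.76 in WT Zbtb46-GFP+ cells, against 11.64 and 11.48 in WT CDPs. Its steps of 0.23 in Batf3 KO, 0.32 in Id2 KO and 0.33 in WT did not pass the test. The arrays of Psmb8, too, did not overlap between the stages in any genotype, which within 1 genotype held for 20.3% to 21.6% of all genes in this direction. Psmb10 measured 11.28 and 11.24 in WT Zbtb46-GFP+ cells, against 11.24 and 10.97 in WT CDPs. The steps of Psmb10 were 0.29 in Batf3 KO, -0.01 in Id2 KO and 0.16 in WT, and none passed.

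The constitutive subunits that these 3 replace did not pass the test. In the WT step Psmb5, the counterpart of Psmb8, differed by -0.16, Psmb6, that of Psmb9, by -0.05, and Psmb7, that of Psmb10, by -0.10, with limma adjusted p of 0.622, 0.912 and 0.779. Of the 14 subunits of the constitutive proteasome core 0 were called by limma in the WT step, 1 had an unadjusted p under 0.05, as had 22.6% of all genes, and the median was -0.18.

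Erap1, the trimming aminopeptidase, ran the other way. It measured 8.92 and 8.75 in Batf3 KO Zbtb46-GFP+ cells, against 9.21 and 9.03 in Batf3 KO CDPs. In Id2 KO cells its values were 9.03 and 8.69 in Zbtb46-GFP+ cells, against 9.41 and 9.16 in CDPs. In WT cells its values were 8.75 and 9.13 in Zbtb46-GFP+ cells, against 9.33 and 9.15 in CDPs. In each genotype both Zbtb46-GFP+ arrays were lower than both CDP arrays, with steps of -0.43 to -0.29, and no single genotype passed the test. Of all genes 23.3% in Batf3 KO, 21.4% in Id2 KO and 22.9% in WT lay lower in this way. The steps of Erap1 were negative within both sets of arrays in all 3 genotypes.

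B2m, the light chain shared by all class I molecules, measured 12.83 and 12.81 in WT Zbtb46-GFP+ cells, against 12.41 and 12.75 in WT CDPs. The steps of B2m were 0.30 in Batf3 KO, 0.15 in Id2 KO and 0.24 in WT, with no call. Tapbpl, an editor of the loaded peptide, measured 9.02 and 9.01 in WT Zbtb46-GFP+ cells, against 8.93 and 8.65 in WT CDPs. Its steps of 0.31 in Batf3 KO, 0.32 in Id2 KO and 0.22 in WT were alike in size and did not pass the test in any genotype.

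Nlrc5 had the noisiest probe set of the 10, with a within-group SD of 0.33. Its CDP replicates lay far apart, at 10.20 and 10.71 in Batf3 KO and at 10.21 and 10.80 in Id2 KO. In WT cells it measured 11.04 and 10.89 in Zbtb46-GFP+ cells, against 10.10 and 10.88 in CDPs. The WT step was 0.47 ± 0.27 (limma adjusted p 0.356), 0.79 within the higher set of arrays and 0.16 within the lower. All 19 probe sets of Nlrc5 had positive steps in each of the 3 genotypes, with medians of 0.34 in Batf3 KO, 0.34 in Id2 KO and 0.45 in WT, where they ran from 0.22 to 0.64. In WT, 11 of the 19 had both Zbtb46-GFP+ arrays above both CDP arrays. They read the same transcripts on the same arrays and are not independent. Averaged over the 19 probe sets, the WT step of Nlrc5 was 0.42 (limma adjusted p 0.184).

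**Figure D3:**
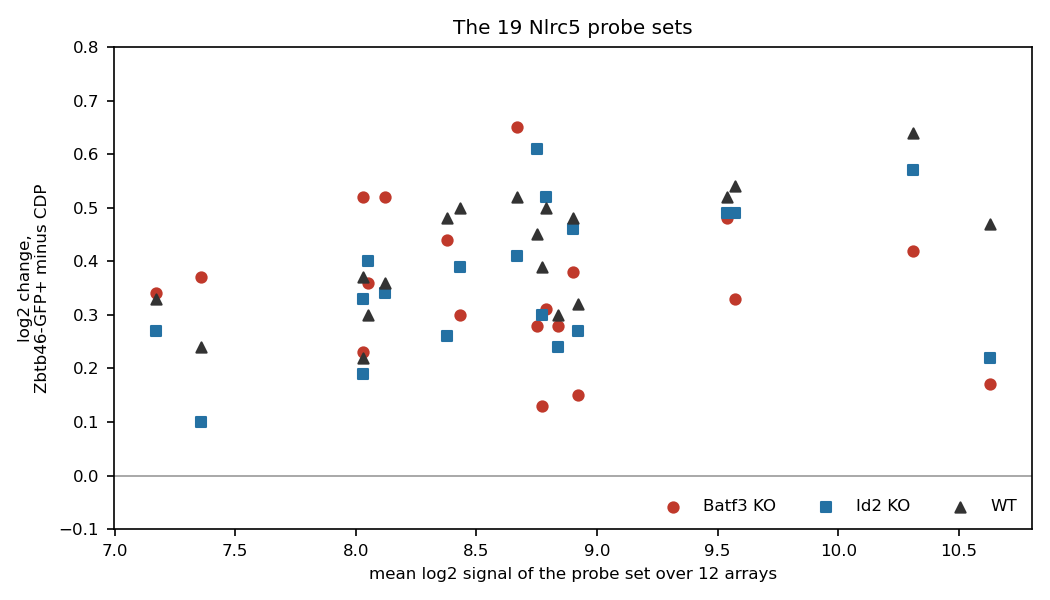
Log2 difference of Zbtb46-GFP+ cells minus CDPs (y axis) against mean log2 signal over 12 arrays (x axis) for the 19 Nlrc5 probe sets, with 1 point per probe set and genotype (circles Batf3 KO, squares Id2 KO, triangles WT). All points lie above 0, and the WT points run from 0.22 to 0.64.

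In Batf3 KO cells limma called 0 of the 10 members in the step and 2, Tap1 and Tapbp, had an unadjusted p under 0.05, while 7.18% of all genes were called and 18% had such an unadjusted p. In the Id2 KO step 1 member, Tapbp, rose and 4 had an unadjusted p under 0.05, where 3.84% of all genes rose, 2.98% fell and 17.1% had an unadjusted p under 0.05. The members had median steps of 0.30 (Batf3 KO) and 0.27 (Id2 KO), beside 0.01 over all genes in both. With the 2 sets of arrays as a block, limma called 2 members in Batf3 KO (Tapbp and Tap1 higher), 4 in Id2 KO (Tapbp, Tap1 and Psmb9 higher, Erap1 lower) and 5 in WT (Tapbp, Tap1, Psmb9 and Nlrc5 higher, Erap1 lower). Under that block the calls over all genes were 3487 in Batf3 KO, 3234 in Id2 KO and 4829 in WT, against 1432, 1359 and 2212 without it. The sets were formed from the arrays' own signal, so this block takes out spread by construction and favours calls. Within the higher set the WT step was 0.40 for B2m, 0.68 for Tap1, 0.15 for Tap2, 0.08 for Tapbpl, 0.12 for Psmb8, 0.01 for Psmb10 and -0.20 for Erap1. Within the lower set these steps were 0.08, 0.65, 0.53, 0.37, 0.54, 0.31 and -0.41 in the same order, so that for WT no member changed sign between the sets.

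A step averaged over the 3 genotypes, added after the values had been seen, gave smaller errors. In this comparison 5 members rose, Tapbp by 0.77, Tap1 by 0.57, Psmb9 by 0.45, Psmb8 by 0.29 and Tapbpl by 0.28, with limma adjusted p of 0.000309, 0.000795, 0.00422, 0.031 and 0.0426. Erap1 fell by 0.34 (limma adjusted p 0.033), and of all genes 9.23% rose and 14.1% fell. The rises of Tapbp, Tap1 and Psmb9 kept their call without any 1 of the 12 arrays, whereas Psmb8 kept it in 5, Tapbpl in 2 and Erap1 in 6 of the 12 fits, and Erap1 lost it with the replicate number as a block (limma adjusted p 0.418). For Tap1, Tapbp, Psmb8 and Psmb9 all 6 Zbtb46-GFP+ arrays exceeded all 6 CDP arrays, as did 5.93% of all genes. B2m, Tap2, Psmb10 and Nlrc5 were not called in the average, with steps of 0.23, 0.26, 0.15 and 0.29. Psmb8 lost its call with all 15 arrays and a term for the 3 kept apart (limma adjusted p 0.0586), and Tapbpl with a prior trend (0.0659). Nlrc5 passed with the mean of its 19 probe sets (0.38, limma adjusted p 0.0195). Tap2 passed after quantile normalization (0.00943), after 75th percentile centring (0.0212), with all 15 arrays and the same term (0.0396) and when the fit was blocked by replicate number (0.0286). Once the 2 sets of arrays were the block, B2m, Tap2 and Nlrc5 passed as well (0.0163, 0.015 and 0.025), which made 9 members.

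Marker genes of other cells differed between the stages, too, and not in the same way in each genotype. The summed signal of 5 neutrophil genes was 19244 to 25775 in Batf3 KO, 34377 to 35517 in Id2 KO and 14200 to 15298 in WT Zbtb46-GFP+ cells, against 3898 to 6273, 5834 to 16570 and 4956 to 9142 in the CDPs of those genotypes. Of these 5 genes limma called 4 higher in Batf3 KO, 4 higher in Id2 KO and 0 higher and 1 lower in WT, where all 5 had an unadjusted p under 0.05, and Elane, a protease of granulocyte precursors, was lower in each genotype (9.20, 9.81 and 7.49 in Zbtb46-GFP+ cells, against 9.66, 10.60 and 9.51 in CDPs of Batf3 KO, Id2 KO and WT). The sum of 5 pDC genes was 6489 to 9583 in Batf3 KO, 14414 to 15392 in Id2 KO and 4530 to 6225 in WT Zbtb46-GFP+ cells, against 7328 to 9122, 5927 to 7029 and 4727 to 7274 in CDPs, so the sums overlapped between the stages in Batf3 KO and WT. The single genes did not move together. Of these 5 limma called 2 higher in Batf3 KO, 4 in Id2 KO and 2 in WT, and 0 lower in each. In WT, Irf7 went from 7.41 in CDPs to 10.20 and Ccr9 from 5.36 to 7.61. Siglech (9.10 to 8.75), Tcf4 (10.69 to 10.08) and Bst2 (11.75 to 11.23) were lower. The sum of 4 monocyte and macrophage genes was 4620 to 4672 in Batf3 KO, 3397 to 3605 in Id2 KO and 4373 to 4621 in WT Zbtb46-GFP+ cells, against 4087 to 4159, 3593 to 3858 and 3594 to 3602 in CDPs, with overlap in Id2 KO. One of these 4, Csf1r, which CDPs also express, differed by -2.03 in the WT step. The 3 B lineage genes summed to at most 172, the 2 erythroid genes to at most 189 and the 4 T and NK genes to at most 236 on any of the 12 arrays. The part of these cells in the results was not tested, and in sorted bulk RNA a shift in cell mix cannot be told apart from a change per cell.

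Psmb9, Tap1, Psmb8 and Tap2 are neighbours on mouse chromosome 17, in that order, inside the class II region. They lie between the class II genes H2-DMa and H2-Ob, with H2-DMb2 and H2-DMb1 (not analysed here) next to H2-DMa. In the WT step these 4 differed by 0.56, 0.66, 0.33 and 0.34. Their class II neighbours rose by larger steps, H2-Ob by 3.01, H2-Ab1 by 5.52, H2-Aa by 6.48 and H2-Eb1 by 5.73, with limma adjusted p of at most 1.19e-05. H2-DMa, a class II peptide editor, rose by 0.89 (limma adjusted p 0.00241), and Brd2 at the far end differed by 0.06. In the knockouts H2-Aa rose by 7.03 (Batf3 KO) and 6.43 (Id2 KO), while the 4 loading genes differed by 0.21 to 0.53.

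**Figure D4:**
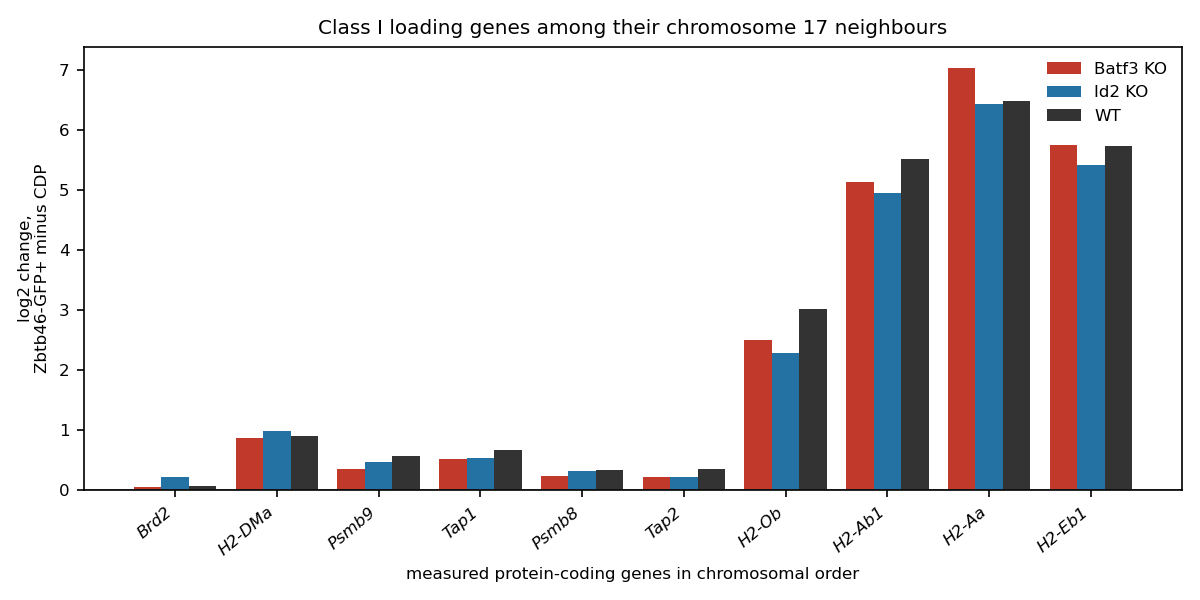
Log2 difference of Zbtb46-GFP+ cells minus CDPs (y axis) for the measured protein-coding genes around Psmb9, Tap1, Psmb8 and Tap2 in chromosomal order (x axis, not to distance), with bars for Batf3 KO, Id2 KO and WT group means. The 4 loading genes lie between 0.21 and 0.66, H2-Ob, H2-Ab1, H2-Aa and H2-Eb1 between 2.28 and 7.03.

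Between knockout and WT, none of the 10 genes differed past the test at either stage. In Batf3 KO against WT Zbtb46-GFP+ cells limma called 0 of 10 members, 0 had an unadjusted p under 0.05, and 0.336% of all genes were called. In Id2 KO against WT Zbtb46-GFP+ cells 0 of 10 were called by limma, 0 had an unadjusted p under 0.05, and 1.81% of all genes were called. Both comparisons use the same WT arrays. In CDPs, too, limma called 0 members in either knockout and 0 had an unadjusted p under 0.05, with 0.0502% of all genes called in Batf3 KO and 0.0251% in Id2 KO. At that stage Batf3 averaged 7.11 in Batf3 KO and 7.14 in WT, and Id2 averaged 6.52 in Id2 KO and 7.54 in WT. Batf3 signal was thus alike in both genotypes and Id2 low in both, so these CDP comparisons say little about either gene's loss.

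The intervals show what size of change 2 arrays per group leave possible. Over the members, the 95% limits of the differences in Zbtb46-GFP+ cells ran from -0.94 to 0.52 in Batf3 KO against WT and from -0.83 to 0.36 in Id2 KO against WT, with Nlrc5 at the lowest limit in both. In CDPs they ran from -0.63 to 0.56 in Batf3 KO and from -0.58 to 0.61 in Id2 KO. The differences themselves lay between -0.34 and 0.17 in Batf3 KO Zbtb46-GFP+ cells. In Id2 KO Zbtb46-GFP+ cells all 10 were below 0, between -0.25 and -0.02, with a median of -0.11 beside -0.02 over all genes. Of all 19938 genes 9244 were above 0 there. The 10 differences share the same 2 WT arrays. With 1 array left out they reached up to 0.11 for Erap1, 0.09 for Tapbpl, 0.06 for Tap1, 0.05 for Psmb8 and 0.01 for Tapbp. B2m, Tap2, Psmb9, Psmb10 and Nlrc5 stayed below 0 in those fits. Averaging the 19 Nlrc5 probe sets turned the Id2 KO difference of Nlrc5 to 0.07 and brought that of Batf3 KO, the lowest at -0.34, to -0.13.

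**Figure D5:**
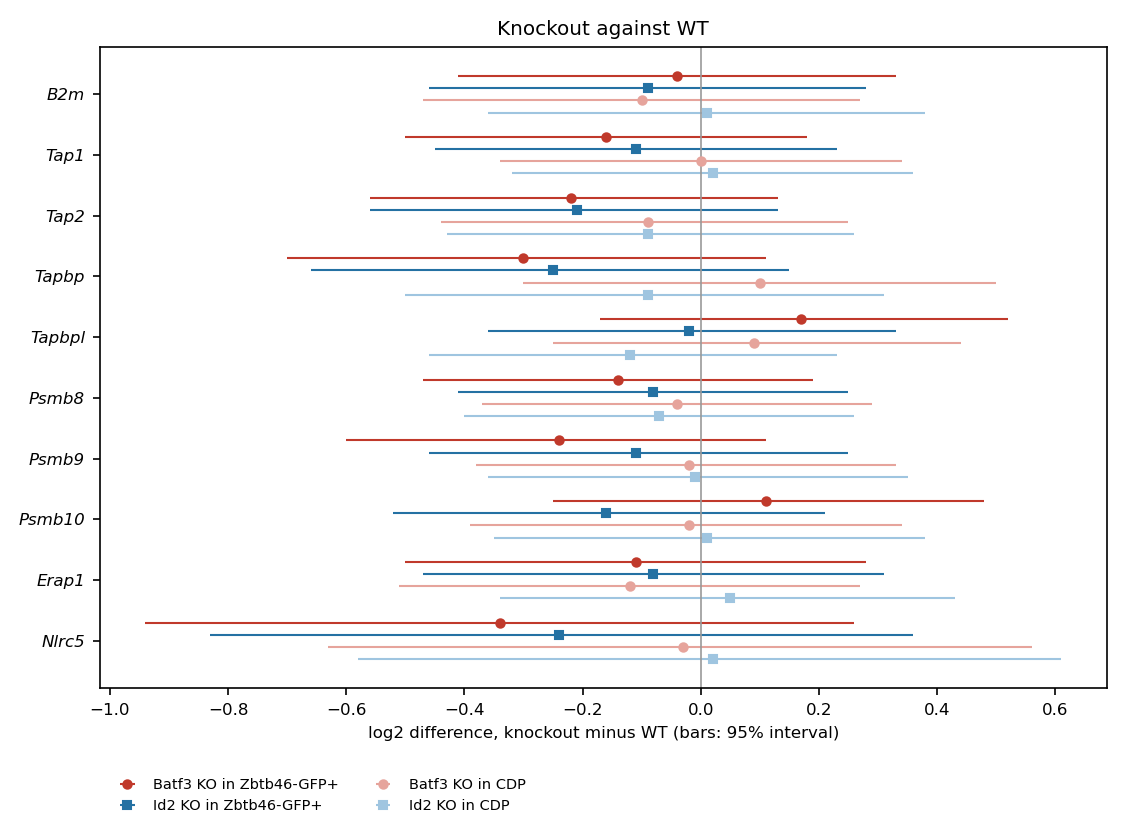
Log2 difference of knockout minus WT (x axis) for each loading gene with 95% intervals, for Batf3 KO (circles) and Id2 KO (squares) in Zbtb46-GFP+ cells (dark) and in CDPs (pale). Every interval includes 0, and the widest are those of Nlrc5.

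Where members stood furthest from WT, the arrays tell how. Tap2 measured 10.08 and 9.96 in Batf3 KO and 10.01 and 10.04 in Id2 KO Zbtb46-GFP+ cells, against 10.28 and 10.20 in WT, so that both knockouts lay below both WT arrays. Nlrc5 measured 10.47 and 10.78 in Batf3 KO and 10.68 and 10.77 in Id2 KO Zbtb46-GFP+ cells, against 11.04 and 10.89 in WT, again without overlap. Tapbp, at 10.43 and 10.28 in Batf3 KO and 10.43 and 10.36 in Id2 KO, overlapped its WT values of 10.39 and 10.91. Psmb9 measured 12.02 and 11.99 in Batf3 KO, below its WT values of 12.35 and 12.14. In Id2 KO its values of 12.17 and 12.11 overlapped those of WT. Arrays lay below WT without overlap for 3 members in Batf3 KO, beside 10.7% of all genes, and for 4 members in Id2 KO, beside 16.4%. Psmb10 and Tapbpl lay above WT without overlap in Batf3 KO, as did 13.5% of all genes.

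The knockouts did not differ from each other past the test, with 0 of 10 members called by limma in Id2 KO against Batf3 KO Zbtb46-GFP+ cells, 0 at an unadjusted p under 0.05, and 0.592% of all genes called. The differences ran from -0.27 for Psmb10 to 0.13 for Psmb9. The step from CDPs was also not altered past the test, with 0 of 10 members called by limma in either interaction and 0 at an unadjusted p under 0.05, while 0.0953% of all genes were called for Batf3 KO and 0.321% for Id2 KO. The interaction of Tapbp was -0.40 in Batf3 KO and -0.16 in Id2 KO, each with an SE of 0.26.

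On the 3 arrays kept apart, the loading genes could be read only as single values. B2m, Tapbp and Psmb10 had the same value on all 3, and Tap1, Tap2 and Erap1 were also identical in Batf3 KO and WT. Between these arrays 71.7% of probe sets were identical in Batf3 KO and WT and 59.4% in Id2 KO and WT. Among members that differed, Psmb9 was 8.10 in Batf3 KO and 7.31 in Id2 KO, against 8.25 in WT, and Psmb8 was 8.75 and 8.17, against 8.90. Psmb9 and Psmb8 thus differed by -0.94 and -0.73 in Id2 KO, where the other arrays gave -0.11 and -0.08. The reason for the scale and the ties was not tested.

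Other genes of the class I route were counted in the same WT step, from lists of known function. These lists were chosen with earlier results of these data known. Of all genes 4.71% rose and 6.38% fell in this step. Of the 21 class I heavy chains and related molecules listed, 11 were measured by a probe set of their own, and H2-K1 and H2-D1, the classical heavy chains, were not analysed here. Of the 11, 3 rose and 2 fell, including H2-T24 by 1.89 and H2-M3, which presents formylated peptides, by 0.88 upward, and Mr1 and Cd1d1, which present metabolites and lipids, at -0.94 and -0.91. Of 10 endoplasmic reticulum chaperones that serve class I assembly 1 fell, Pdia4 at -0.60, and 0 rose. Of 9 proteasome activators and assembly factors 2 fell, the assembly chaperones Psmg1 and Psmg2 at -1.03 and -0.81, and 0 rose. Of 9 cytosolic and endosomal peptidases 3 fell, Blmh, Ide and Thop1 at -1.12, -0.93 and -0.84, and 0 rose. The medians of these 3 lists were -0.14, -0.19 and -0.41, beside 0.33 for the loading genes.

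Genes of cross-presentation and regulators of class I included larger steps, but the medians of these lists in WT were -0.02 and 0.12, beside 0.03 over all genes. Steps were positive for 8 of 17 cross-presentation genes and 17 of 22 regulators. In the WT step 5 of 17 genes listed for cross-presentation rose and 1 fell, beside 4.71% and 6.38% of all genes. The rises included Rab43 at 2.38, Wdfy4, which cDC1 cells need for cross-presentation, at 1.74, Cybb, an oxidase subunit, at 1.54, and the listed Toll-like receptor gene Tlr9 at 1.30. Of 22 regulators 7 rose and 0 fell, led by Ciita, the class II transactivator and a relative of Nlrc5, at 4.60, the interferon gamma receptor chain Ifngr1 at 1.99, and the kinases Jak2 at 1.52 and Tyk2 at 1.18. Irf1 and Irf8, both activators of class I genes, differed by 0.21 and 0.10 and did not pass the test.

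Some of these genes changed in Id2 KO Zbtb46-GFP+ cells, where 1.81% of all genes were called. Relative to WT, Ifngr1 fell by 1.44, Ncf4 by 1.26, Ciita by 0.97 and Wdfy4 by 0.88, and Rab27a rose by 0.89, with limma adjusted p of 0.00469, 0.0137, 0.018, 0.0116 and 0.0432. The step of Ifngr1 itself differed between Id2 KO and WT by -1.65 (interaction, limma adjusted p 0.0488). In Batf3 KO Zbtb46-GFP+ cells limma called 0 of 17 cross-presentation genes and 0 of 22 regulators, beside 0.336% of all genes. In these lists 5 and 2 had an unadjusted p under 0.05, beside 4.45% of all genes.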

How the data were processed

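Per the submitters' processing notes, the authors processed the arrays with RMA in Affymetrix Expression Console, without versions. The deposited unit is intensity, linear and never negative, so log2 was taken first. Of 28853 probe sets 21789 named a single gene, and the one with the highest mean stood for each of 19938 genes. Comparisons used limma 3.58.1 in R 4.3.3 on 12 arrays (6 group means, 6 residual degrees of freedom, empirical Bayes without trend, two-sided, Benjamini-Hochberg over all genes), and the procedure was tested on simulated data. Array number limits precision. The members, gene lists, 12-array choice and motifs were chosen with earlier results of these data known. Named are all members, Psmb5, Psmb6, Psmb7, H2-K1, H2-D1, Irf1, Irf8, Batf3, Id2 and a gene not reported here, for each list up to 4 called genes with the largest change and no overlap, and the 3 genes most like a member that spans 1 log2 unit. Chromosomal neighbours and marker genes were added. Replicate numbers were checked as pairs: residuals of same-numbered arrays correlated at 0.53 to 0.683 between CDP groups and at 0.477 between the knockout Zbtb46-GFP+ groups, but at -0.554 and -0.424 between these and WT, so numbers were not used as pairs. Alternatives covered scaling, probe set choice, dim genes (under 6.42 in every group), prior trend, arrays used, blocks and leaving out each array.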

Additional observations from a re-analysis of the deposited data

How the results depend on the processing

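With 2 arrays per group, the calls near the threshold moved with the processing. In the Batf3 KO step 0 members were called, 1 after quantile normalization, after 75th percentile centring or with a prior trend, 2 with all 15 arrays and a term for the 3 arrays on another scale or with the 2 sets of arrays as a block, and 0 with any array left out. In the Id2 KO step 1 member was called, 2 after quantile normalization, with a trend, with all 15 arrays and a term or with a block for the replicate number, 0 with all 15 arrays and no term, 4 with the sets as a block and 0 to 2 with an array left out (0 without any of the 4 Id2 KO arrays). In the WT step, 3 members were called, 0 with all 15 arrays and no term, 5 with the sets as a block, 1 with the spread of the 2 WT groups alone and 1 to 3 when an array was left out (1 without replicate 2 of the WT CDPs or replicate 3 of the WT Zbtb46-GFP+ cells). In the average step 6 were called, 9 with the sets as a block, 0 with all 15 arrays and no term and 3 to 6 with an array left out (3 without replicate 2 of the WT, replicate 3 of the Batf3 KO or replicate 3 of the Id2 KO Zbtb46-GFP+ cells). All 15 arrays without a term mix 2 scales within the Zbtb46-GFP+ groups, and there the Id2 KO step of Tapbp turned to -0.35, the WT steps of Tap1, Tapbp and Psmb9 to -0.93, -0.28 and -0.77, and the average steps of Tap1, Tapbp, Tapbpl, Psmb8 and Psmb9 to -1.02, -0.40, -0.87, -0.78 and -0.96. For the other changes the cause was not tested. The replicate block left 0 calls in the Batf3 KO step, 3 in the WT step and 6 in the average step, where Tap2 gained a call and Erap1 lost it. The knockout comparisons and interactions had 0 members called under every alternative. Of 2420 values of single members under alternatives, 2337 kept their side of the threshold, 139 of these with the other sign where neither value passed. Many of the 2337 belong to the knockout comparisons and interactions, which had no call to lose. All the changes fell in the Batf3 KO, Id2 KO, WT and average steps. There 29 values gained a call, 45 lost it and 9 changed sign with a call involved. Calls over all genes, 1432, 1359 and 2212 in the Batf3 KO, Id2 KO and WT steps, ran over 642 to 1548, 488 to 1506 and 1183 to 2331 with an array left out, were 0, 0 and 1 with all 15 arrays and no term, and came to 2352 and 2372 in the Batf3 KO and Id2 KO steps after quantile normalization. The average step had 4650, and 2756 with the replicate block, 7277 with the sets as a block and 48 with all 15 arrays and no term. In Zbtb46-GFP+ cells the 67 calls in Batf3 KO and 361 in Id2 KO were 118 and 669 after quantile normalization, 250 and 1212 with the sets as a block, 0 and 0 with all 15 arrays and no term, 29 and 207 with the term and 33 to 96 and 120 to 357 with an array left out.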
